A study of Mus musculus with 7 samples.

Results

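The 10 genes described here mark the cells that wrap blood vessels in the kidney: vascular smooth muscle cells, pericytes and, in scarred tissue, myofibroblasts. They are Acta2, Myh11, Tagln, Cnn1, Myl9, Mylk and Des, which build or drive the contractile apparatus, and Pdgfrb, Mcam and Rgs5, which encode surface and signalling proteins of these mural cells. They were chosen by name, with earlier results of these data known, and each was matched by symbol to its Ensembl identifier. All 10 were found among the 42256 identifiers of the count table, and all 10 were among the 17964 genes abundant enough to test.

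The data are RNA-seq of kidney tissue from 7 male adult mice, 1 library each, whose background was a mixture of 129S1/Sv x C57BL/6. The labels give no litter or batch and do not describe the Cdh11 allele. Every mouse had lost a kidney and received angiotensin II from a pump at 800 ng/kg/min, and tissue was taken 4 weeks after surgery. The groups were 3 mice labelled CDH11+/+ (wild type) and 4 labelled CDH11-/- (knockout), with no uninjured group in these libraries. The question was how kidneys with this injury differ between the genotypes of Cdh11, which encodes cadherin-11, an adhesion protein of mesenchymal cells.

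Mural cells contract through smooth muscle actin and myosin. Calcium and calmodulin activate myosin light chain kinase, which phosphorylates the regulatory light chain and lets myosin pull on actin. The contractile genes are switched on by serum response factor with its partners of the myocardin family, which act through a DNA element called the CArG box. Pericytes are recruited to vessels by platelet-derived growth factor (PDGF) B from endothelial cells, which binds the receptor encoded by Pdgfrb. In a scarred kidney, pericytes and fibroblasts can turn on Acta2 and are then called myofibroblasts.

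Total counts were 72087906 to 84786351 per library. Cdh11 stood at 4.52 to 10.8 CPM (counts scaled to library size) in the libraries labelled wild type and at 9.56 to 11.6 CPM in those labelled knockout, so the targeted transcript was not lower in the latter. Its log2 fold change was 0.56 (adjusted p = 0.14, edgeR), and 0.93 without wild-type replicate 3 (adjusted p = 0.0043). Of 13 alternative fits 2 called Cdh11 higher, limma-voom and the fit with 1 surrogate variable (adjusted p = 0.0227 and 0.0371). Over the 13 the log2 fold change ran from 0.0793 with the deposited factors (adjusted p = 0.888) to 0.75. As the allele is not described, the Cdh11 counts neither bear out nor contradict the labels. Wild type and knockout below name only what a library is labelled as. Wild-type replicate 3 also stood apart in 4 Y-linked transcripts, with a summed 64.7 CPM against 111 to 145 CPM in the other 6 libraries. Mitochondrial ribosomal RNA took 16.1% ± 2.40 (SD, n = 3) of counts in the wild-type group and 11.8% ± 1.38 (SD, n = 4) in the knockout group.

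Pdgfrb, Mcam and Rgs5 were lower in the libraries labelled knockout, while none of the 7 contractile genes passed the test in either direction. That made 3 of 10 genes called at an adjusted p under 0.05, all 3 lower. The confidence intervals of the contractile genes held the Pdgfrb log2 fold change of -0.35, except that of Mylk, which began at -0.23. The intervals use fewer degrees of freedom than the edgeR test and are wider than that test would give. By these intervals, a fall as large as that of Pdgfrb is not excluded for the contractile genes other than Mylk. For Cnn1 and Myh11, whose intervals began at -0.38 and -0.40, narrower intervals could exclude it. The Rgs5 estimate of -0.50 lay inside the Acta2 interval only, which began at -0.54, again close to the edge. The Mcam estimate of -0.70 lay under all 7. A difference between the contractile genes and the other 3 was not tested. The genes were parted into these groups with earlier results of these data known, so the contrast is a description only. Over all tested genes 29.7% were called, 16.8% higher and 12.9% lower. The share called in either direction among the 10 is near that of the whole transcriptome in this comparison. The share called lower, 3 of 10, stands above the 12.9% of all tested genes, a difference that was not tested. In whole tissue, fewer cells of a type and less RNA per cell cannot be told apart.

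**Figure D1:**
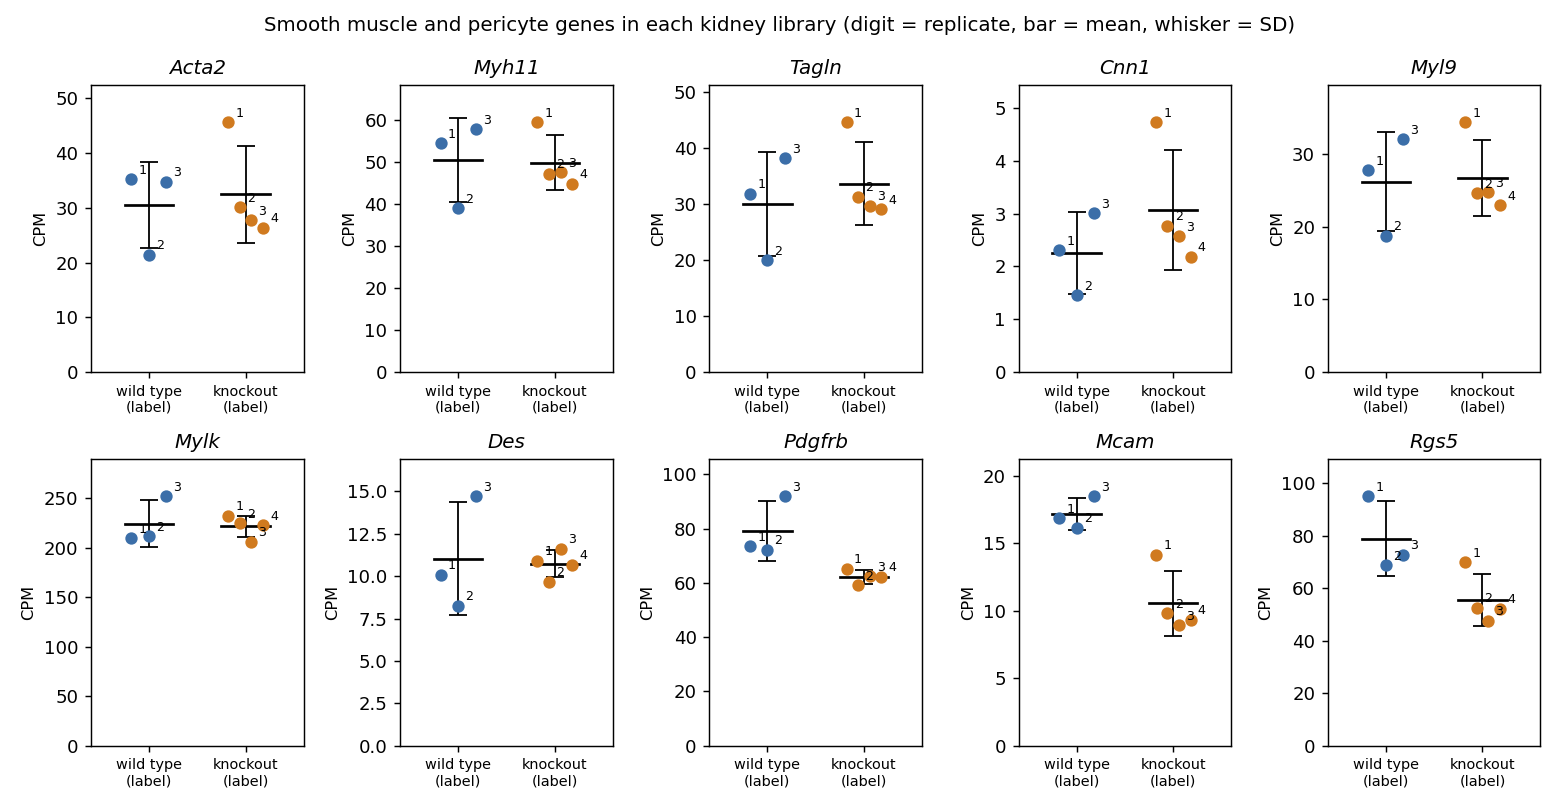
CPM of each of the 10 genes (vertical axes, linear from 0) in the 3 libraries labelled wild type and the 4 labelled knockout, with 1 point per library numbered by replicate, a bar at the group mean and whiskers of 1 SD. The contractile genes overlap between the groups, while Pdgfrb and Mcam lie lower in every knockout library than in any wild-type library.

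Acta2 encodes smooth muscle alpha-actin, the filament protein by which myofibroblasts are usually recognised. In GENCODE M21 it lies on mm10 chr19:34241090-34255590, minus strand (ENSMUSG00000035783). Acta2 stood at 35.2, 21.5 and 34.8 CPM in wild-type replicates 1 to 3 and at 45.6, 30.2, 27.7 and 26.4 CPM in knockout replicates 1 to 4. The lowest library was a wild type and the highest a knockout, and the other 5 lay between them. The group means were 30.5 ± 7.82 CPM (SD, n = 3) and 32.5 ± 8.90 CPM (SD, n = 4). The log2 fold change was 0.09 (95% interval -0.54 to 0.72, adjusted p = 0.81, edgeR). Its sign turned without wild-type replicate 2 (-0.11) and without knockout replicate 1 (-0.12).

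The region around the Acta2 start carries 2 elements close to a CArG box. In the 250 bases before each start in a RefSeq table (GRCm38.p6, the assembly of mm10), CArG boxes were searched exactly and with 1 of the 6 central bases off, a pattern that reads alike on both strands. The table held windows for 7 of the genes and none for Tagln, Myh11 and Pdgfrb. Matches were found for Acta2 and Myl9, with 2 each, and none for Des, Cnn1, Mylk, Mcam and Rgs5. Of 32851 windows in the table, 1.47% held an exact box, 8.59% an exact box or 1 with a base off, and 0.67% at least 2 of these. A link between matches and library profiles was not tested. The matches are shown with the 10 matching bases in capitals and 10 bases on each side, 5′ to 3′ on the gene's strand.
Acta2, chr19:34255438-34255467, minus strand, 1 base off: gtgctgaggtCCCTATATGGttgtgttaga
Acta2, chr19:34255388-34255417, minus strand, 1 base off: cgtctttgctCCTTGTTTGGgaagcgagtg
Myl9, chr2:156775293-156775322, plus strand, exact: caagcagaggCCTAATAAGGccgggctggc
Myl9, chr2:156775355-156775384, plus strand, 1 base off: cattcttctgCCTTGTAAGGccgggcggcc
Counted from the RefSeq starts, chr19:34255373 for Acta2 and chr2:156775464 for Myl9, the Acta2 matches begin 84 and 34 bases before the start and the Myl9 matches 161 and 99 bases before it. These starts differ from the gene ends given for GENCODE, so the Acta2 matches lie inside the GENCODE span of the gene and the Myl9 matches outside that of Myl9. A match describes these letters only and does not show binding.

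Myl9 encodes the regulatory light chain of smooth muscle myosin, the protein that myosin light chain kinase phosphorylates. Myl9 (chr2:156775420-156781658, plus strand) stood at 27.8, 18.8 and 32.1 CPM in the wild-type libraries and at 34.4, 24.7, 24.8 and 23.0 CPM in the knockout libraries. As for Acta2, wild-type replicate 2 was lowest and knockout replicate 1 highest, and the groups overlapped. Its log2 fold change was 0.03 (95% interval -0.49 to 0.55, adjusted p = 0.93, edgeR), with -0.16 without wild-type replicate 2 and -0.12 without knockout replicate 1.

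Myh11 encodes the smooth muscle myosin heavy chain, the motor itself and the most specific protein of mature smooth muscle. Myh11 (chr16:14194535-14291372, minus strand) stood at 54.5, 39.0 and 57.8 CPM in the wild-type libraries and at 59.4, 47.2, 47.6 and 44.8 CPM in the knockout libraries. The library order at both ends was again wild-type replicate 2 lowest and knockout replicate 1 highest. For Myh11 the log2 fold change was -0.02 (95% interval -0.40 to 0.36, adjusted p = 0.93, edgeR). Its sign turned without wild-type replicate 1 (0.03) or 3 (0.08) or knockout replicate 3 (0.0023) or 4 (0.03).

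Tagln encodes transgelin, an actin-binding protein that appears early in smooth muscle differentiation. Tagln (chr9:45929619-45936058, minus strand) stood at 31.9, 20.0 and 38.2 CPM in the wild-type libraries and at 44.6, 31.3, 29.7 and 29.1 CPM in the knockout libraries. Knockout replicate 1 stood well above the other 3 knockout libraries, which lay close together. For Tagln the log2 fold change was 0.16 (95% interval -0.46 to 0.79, adjusted p = 0.65, edgeR). Without wild-type replicate 2 it was -0.06, and without knockout replicate 1 it was -0.0001. The protease gene Pcsk7 overlaps Tagln on the opposite strand, and whether the counting used strand is not stated in the labels.

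Cnn1 encodes calponin, which binds actin and slows the myosin motor, and it was the least abundant of the 10 genes. Cnn1 (chr9:22099216-22109630, plus strand) drew 163, 109 and 260 counts under the wild-type label and 400, 198, 222 and 174 counts under the knockout label. These are 2.31, 1.46 and 3.00 CPM against 4.72, 2.77, 2.57 and 2.18 CPM, with overlap between the groups. Its estimate was the highest of the contractile genes and also the least precise, with a log2 fold change of 0.44 (95% interval -0.38 to 1.25, adjusted p = 0.34, edgeR). The estimate was 0.15 without knockout replicate 1 and 0.20 without wild-type replicate 2.

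Mylk encodes myosin light chain kinase. A long form of this kinase is also made by non-muscle cells, and counts per gene do not separate the forms. Mylk (chr16:34745210-35002420, plus strand) stood at 210, 212 and 252 CPM in the wild-type libraries and at 232, 225, 206 and 223 CPM in the knockout libraries. It did not share the low value of wild-type replicate 2 seen for the other contractile genes. The log2 fold change was -0.02, with the narrowest interval of the 10 genes (-0.23 to 0.19, adjusted p = 0.88, edgeR), and its sign turned without wild-type replicate 3 (0.06) or knockout replicate 3 (0.01).

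Des encodes desmin, the intermediate filament of muscle, which pericytes, mesangial cells and injured podocytes also make. Des (chr1:75360329-75368579, plus strand) stood at 10.1, 8.27 and 14.7 CPM in the wild-type libraries and at 10.9, 9.68, 11.6 and 10.7 CPM in the knockout libraries. The wild-type libraries covered a wider range than the knockout libraries, which all lay inside it. The log2 fold change was -0.04 (95% interval -0.49 to 0.41, adjusted p = 0.88, edgeR), and 0.22 without wild-type replicate 3 (adjusted p = 0.19).

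Across the 7 contractile genes, edgeR called 0 in either direction, beside 29.7% of all tested genes, a difference that was not tested. At an unadjusted p under 0.05 the count was 0 as well, and DESeq2 and limma-voom also called 0. The median log2 fold change was 0.03, against -0.01 over all tested genes. Wild-type replicate 2 was the lowest of the 7 libraries in 6 of these genes, all but Mylk, and knockout replicate 1 the highest in 5, all but Mylk and Des. So the extremes lay in single libraries of both groups. The summed CPM of the 7 genes ran from 321 to 433 in the wild-type libraries and from 350 to 432 in the knockout libraries.

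**Figure D2:**
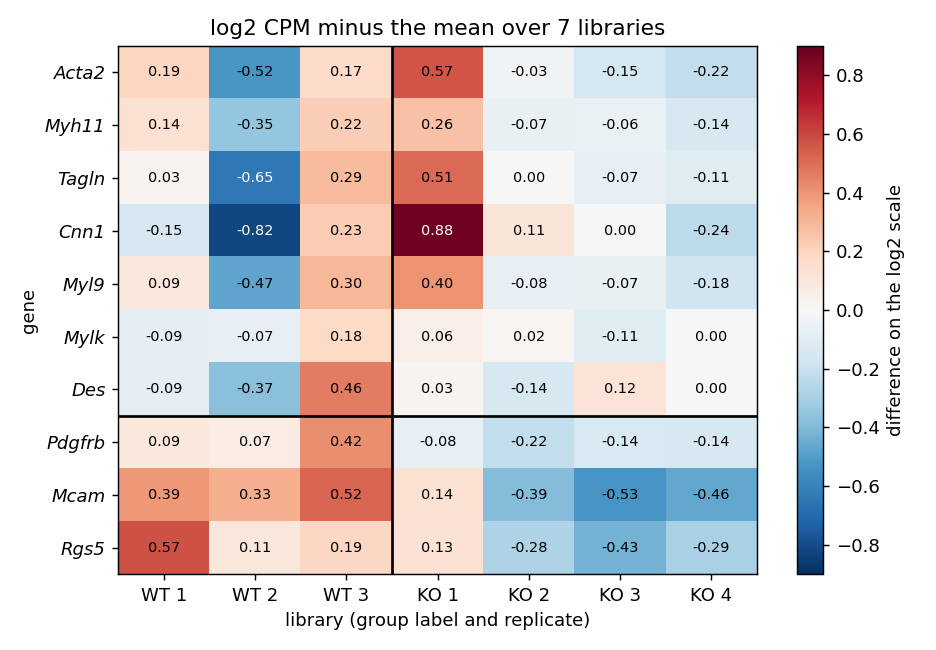
log2 CPM of each gene (rows) in each library (columns, WT for labelled wild type and KO for labelled knockout) minus the mean of that gene over the 7 libraries. The contractile genes above the horizontal line are, apart from Mylk, lowest in WT 2 and, apart from Mylk and Des, highest in KO 1, while Pdgfrb, Mcam and Rgs5 below it are lower in KO 2 to KO 4 than in the 3 WT libraries.

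Smooth muscle of the renal pelvis and ureter can enter a kidney sample, so genes of the urothelium that lines them were summed in each library. The 8 urothelial genes summed to 6.99, 1.74 and 8.86 CPM in the wild-type libraries and to 4.06, 1.37, 12.8 and 6.14 CPM in the knockout libraries. Wild-type replicate 2 was low in both the urothelial and the contractile genes. Knockout replicate 2 had the lowest urothelial sum and was intermediate in the contractile genes. Krt20 alone gave 0.92 CPM in wild-type replicate 2 and 0.46 CPM in knockout replicate 2, and the order of these libraries in the sum rests on it. Knockout replicate 1, highest in most contractile genes, had a sum inside the range of the others. Of these genes, 1 was called, Krt20, a keratin of surface urothelium, with a log2 fold change of -1.32 (adjusted p = 0.0115, edgeR). The other 7 were not called. In wild-type replicate 2, where Krt20 stood at 0.92 CPM, Upk3a, Upk2 and Krt5 stood at 0, 0.04 and 0.03 CPM. Krt20 thus did not follow them, and its call does not speak for the list. The part of pelvic tissue in the contractile values was not tested. Of 12 skeletal and cardiac muscle genes 9 had a mean under 0.1 CPM, as did 3 of the 5 adipocyte genes with a value and 3 of the 4 adrenal genes with a value. The most abundant exceptions were Fabp4 of the adipocyte list, with a mean of 16.3 CPM, and Pvalb of the muscle list, with 6.30 CPM.

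Mcam encodes CD146, an adhesion molecule of smooth muscle cells and pericytes that endothelial cells also carry, and it showed the largest fall of the 10 genes. Mcam (chr9:44134469-44142727, plus strand) stood at 16.9, 16.1 and 18.5 CPM in the wild-type libraries and at 14.1, 9.84, 8.92 and 9.32 CPM in the knockout libraries. All 4 knockout libraries lay under all 3 wild-type libraries, with knockout replicate 1 nearest to them. The means were 17.2 ± 1.20 CPM (SD, n = 3) and 10.6 ± 2.42 CPM (SD, n = 4), a 1.63-fold lower level. This is a log2 fold change of -0.70 (SE 0.15, 95% interval -1.10 to -0.31, adjusted p = 0.0096, edgeR). The call held in all 13 alternative fits and without each library in turn, with estimates from -0.88 to -0.63 in the latter. A predicted antisense gene, Gm10687, overlaps Mcam.

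Rgs5 encodes a regulator of G-protein signalling that shortens the response to angiotensin II and other vasoconstrictors and is a classical pericyte marker. Rgs5 (chr1:169655501-169695813, plus strand) stood at 95.1, 68.8 and 72.8 CPM in the wild-type libraries and at 70.0, 52.7, 47.6 and 52.3 CPM in the knockout libraries. Knockout replicate 1 exceeded wild-type replicate 2, so the groups overlapped by that pair. The log2 fold change was -0.50 (SE 0.15, 95% interval -0.90 to -0.11, adjusted p = 0.0395, edgeR), or 1.42-fold lower. This was the least stable of the 3 calls. It was lost without wild-type replicate 1 (adjusted p = 0.127) or 3 (0.0658) and without knockout replicate 2 (0.0925), 3 (0.0914) or 4 (0.0883), and strongest without knockout replicate 1 (log2 fold change -0.63, adjusted p = 0.0075). It was also lost with total-count scaling (adjusted p = 0.0561) and without the low-count filter (0.0703), while the sign was negative in every fit run.

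Pdgfrb encodes the PDGF receptor beta of pericytes, mesangial cells and fibroblasts, which receives the recruiting signal from the endothelium. Pdgfrb stood at 73.5, 72.2 and 92.0 CPM in the wild-type libraries and at 65.2, 59.1, 62.5 and 62.3 CPM in the knockout libraries. The groups did not overlap, and the knockout libraries lay close together. The means were 79.2 ± 11.1 CPM (SD, n = 3) and 62.3 ± 2.53 CPM (SD, n = 4). This is a log2 fold change of -0.35 (SE 0.09, 95% interval -0.57 to -0.12, adjusted p = 0.0168, edgeR), or 1.27-fold lower. Wild-type replicate 3 was the highest library, and without it the log2 fold change was -0.23 (adjusted p = 0.0219). The call was lost with total-count scaling (adjusted p = 0.0605) and kept in the other 12 alternative fits and without each library in turn.

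**Figure D3:**
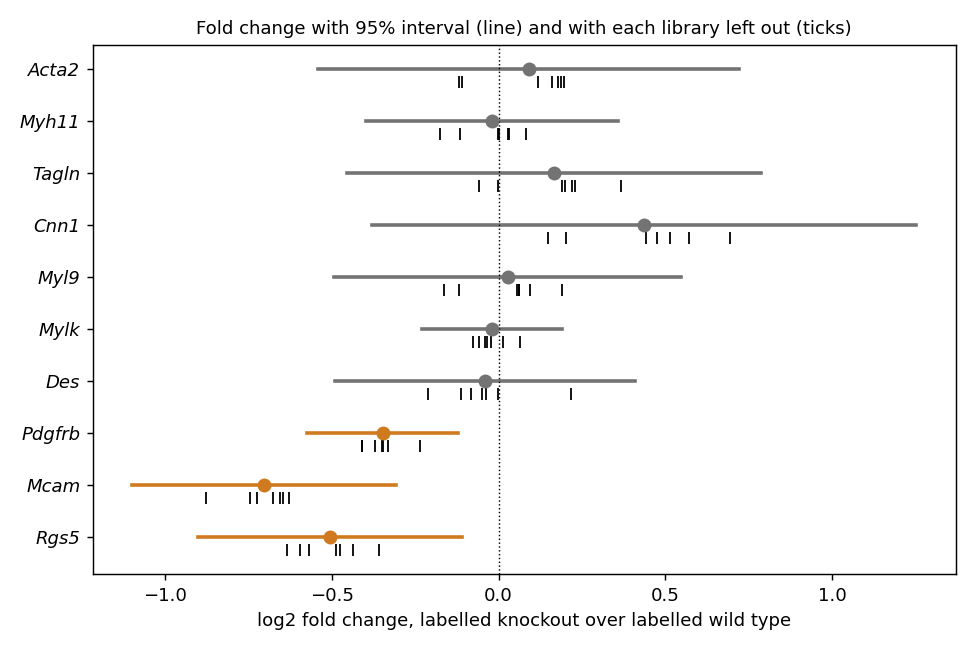
log2 fold change of labelled knockout over labelled wild type (horizontal axis) for each gene, with its 95% interval as a line, called genes in orange, and the estimate with each library left out as ticks. The intervals of the 7 contractile genes span 0, and all ticks of Pdgfrb, Mcam and Rgs5 lie under 0.

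Mcam and Pdgfrb were therefore 2 of the 10 genes whose knockout libraries all lay under the wild-type libraries, a pattern held by 16.6% of all tested genes (38.5% did not overlap in either direction). Set against Acta2 in the same library and per kilobase of exon, Mcam stood at 0.31, 0.49 and 0.35 of the Acta2 level in the wild-type libraries and at 0.20, 0.21, 0.21 and 0.23 in the knockout libraries. The ratio of Tagln to Acta2 was 1.08 ± 0.12 (SD, n = 3) and 1.16 ± 0.06 (SD, n = 4). Pdgfrb stood at 0.84, 1.35 and 1.06 of the Acta2 level in the wild-type libraries and at 0.57, 0.78, 0.90 and 0.95 in the knockout libraries. The ratios of Tagln and of Pdgfrb to Acta2 overlapped between the groups, and the ratios of Mcam and of Rgs5 did not, the latter running from 1.01 to 1.55 and from 0.74 to 0.96. Acta2 itself was lowest in wild-type replicate 2 and highest in knockout replicate 1, the pair by which Rgs5 overlapped. Set against Pdgfrb instead, both overlapped, Mcam with 0.33 to 0.38 and 0.23 to 0.35, and Rgs5 with 0.95 to 1.56 and 0.92 to 1.29.

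Marker genes of other cell types also differed between the groups, where 12.9% of all tested genes were called lower and 16.8% higher. Podocyte markers were lower in 6 of 7 genes with 0 higher, and their summed level was 441 to 534 CPM in the wild-type libraries and 274 to 396 CPM in the knockout libraries. Among them Wt1, the transcription factor of podocyte identity, was 1.79-fold lower (adjusted p = 0.0012, edgeR), Ptpro 1.39-fold, Podxl 1.41-fold and Synpo 1.54-fold lower. Endothelial markers were lower in 5 of 12 genes with 0 higher, with sums of 642 to 838 CPM and 515 to 605 CPM. Flt1, a receptor for vascular endothelial growth factor, was 1.61-fold lower (adjusted p = 0.00069), and Pecam1 1.29-fold lower.

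The endothelial calls for Tie1 and Tek, receptors of the angiopoietin system, were 1.23-fold and 1.25-fold lower, and less stable. Tie1 was not called without wild-type replicate 1 (adjusted p = 0.0619), nor Tek without wild-type replicate 1 (0.0667) or 3 (0.0608) or knockout replicate 1 (0.056) or 4 (0.0572). The number of endothelial genes called lower was 2 without wild-type replicate 1, and 3 without wild-type replicate 3 or knockout replicate 1 or 4. Proximal tubule markers were higher in 5 of 8 genes with 0 lower, with sums of 8955 to 10074 CPM and 13532 to 15295 CPM. At an unadjusted p under 0.05 the counts in the opposite direction were 0 for all 3 lists, and DESeq2 and limma-voom called 0 in that direction. The part of these cell types in the lower Pdgfrb, Mcam and Rgs5 was not tested.

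Other contractile and cytoskeletal genes of smooth muscle were mostly not called, and those called were lower. Of 22 such genes 5 fell and 0 rose, with 17 not called and a median log2 fold change of -0.12. The share of all tested genes called lower was 12.9%. At an unadjusted p under 0.05 8 were lower and 0 higher, and DESeq2 called 7 lower and limma-voom 5, both with 0 higher. Vcl encodes vinculin, which ties actin to the membrane, and was 1.35-fold lower, with means of 104 ± 6.26 CPM under the wild-type label (SD, n = 3) and 77.2 ± 4.44 CPM under the knockout label (SD, n = 4, adjusted p = 0.0019, edgeR). Csrp1, an actin-bundling LIM protein, was 1.72-fold lower, the smoothelin gene Smtn 1.35-fold and the leiomodin gene Lmod1, which nucleates actin filaments, 1.46-fold lower. Vcl, Csrp1 and Smtn are also made by many cells outside the vessel wall. Without knockout replicate 1 the number called lower was 8.

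Several regulators of the contractile programme were lower. Of 12 regulators 5 fell, beside 12.9% of all tested genes called lower, and 0 rose by edgeR, with 2 higher at an unadjusted p under 0.05. DESeq2 called 1 higher, limma-voom 0, and edgeR called 1 higher without knockout replicate 4. The median log2 fold change was -0.34. Srf, the serum response factor itself, stood at 21.1, 22.8 and 24.9 CPM in the wild-type libraries and at 18.9, 13.9, 16.5 and 17.6 CPM in the knockout libraries (1.37-fold lower, adjusted p = 0.011, edgeR). Mrtfa, a myocardin-related coactivator that carries actin signals to Srf, stood at 22.2, 23.0 and 23.0 CPM against 18.9, 15.6, 16.3 and 16.9 CPM (1.34-fold lower, adjusted p = 0.0033). In both genes no knockout library reached a wild-type library.

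Klf4, a factor that represses contractile genes and is also made in endothelium and epithelium, fell 1.77-fold (adjusted p = 0.001, edgeR). Hey1, a target of Notch signalling, was 2.24-fold lower (1.47, 1.85 and 1.48 CPM against 0.85, 0.89, 0.72 and 0.39 CPM), a call lost with the deposited normalized values or their factors (adjusted p = 0.0585 in both fits). With either, the number of regulators called lower was 3. Myocd, the smooth muscle coactivator for which the family is named, stood at 1.19 to 1.93 CPM and 0.97 to 1.37 CPM and was not called (log2 fold change -0.38, adjusted p = 0.24). Myocd was singled out after its values were seen.

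Among other pericyte and mesangial genes 3 of 16 were lower and 0 higher, a share near the 12.9% of all tested genes called lower. None was higher at an unadjusted p under 0.05 or by DESeq2 and limma-voom. Pde3a, a phosphodiesterase of vascular smooth muscle, was 1.37-fold lower (adjusted p = 0.0102, edgeR), and this call held in every fit run. Notch3, the Notch receptor of mural cells, was 1.27-fold lower (adjusted p = 0.0222). It was not called without wild-type replicate 1 (0.0693) or 3 (0.0567) or knockout replicate 3 (0.0627), with total-count scaling (0.0592), or with the deposited normalized values (0.264) or factors (0.308). Gata3, a factor of mesangial cells that collecting duct cells also make, was 1.35-fold lower (adjusted p = 0.0364), a call kept without wild-type replicate 3 and lost without each of the other 6 libraries (0.0515 to 0.118) and with the deposited normalized values (0.102) or factors (0.0838).

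The pericyte list depended on single libraries. Its count of lower genes was 1 without wild-type replicate 1 or knockout replicate 3, 2 without wild-type replicate 3 or knockout replicate 1, 2 or 4, and 1 with the deposited normalized values or factors. Without wild-type replicate 3, 1 gene of the list was called higher. Cspg4, the NG2 proteoglycan of pericytes, was not called and stood at 37.0 to 51.7 CPM in the wild-type libraries and 37.9 to 46.3 CPM in the knockout libraries (log2 fold change -0.0035, adjusted p = 0.98). Cspg4 was singled out after its values were seen.

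**Figure D4:**
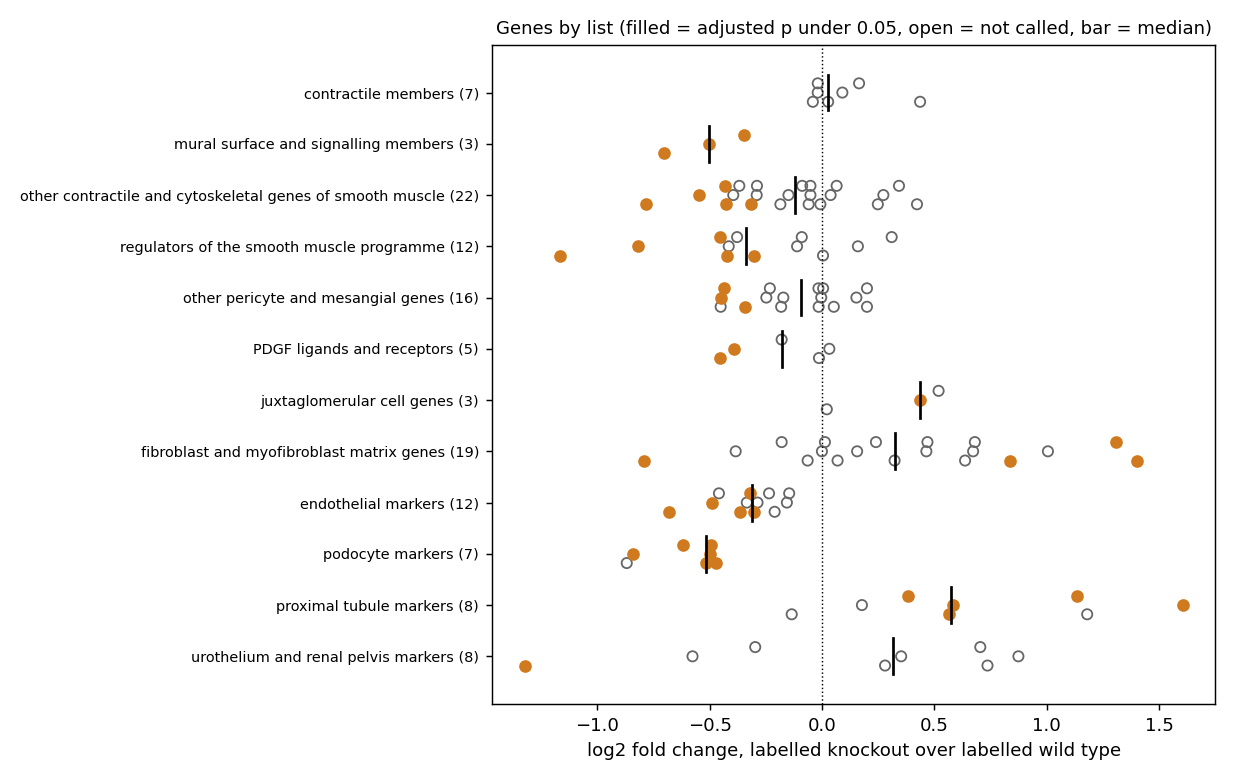
log2 fold change of labelled knockout over labelled wild type (horizontal axis) of each tested gene, by list (rows, number tested in brackets), with called genes filled, others open, and a bar at the list's median. The contractile list lies around 0 with no filled point, and the 3 surface and signalling genes are all filled and under 0.

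Of the 4 PDGF ligand genes 2 were called, both lower. Pdgfb, the endothelial ligand of the receptor beta, was 1.31-fold lower (adjusted p = 0.0463, edgeR) and Pdgfa, the ligand of the receptor alpha, 1.37-fold lower (adjusted p = 0.0138). Pdgfa was not called without wild-type replicate 1 (0.0537). Pdgfb was not called without wild-type replicate 1 (0.0795) or 3 (0.131) or knockout replicate 2 (0.101), 3 (0.0891) or 4 (0.0888), with limma-voom (0.0502) or with total-count scaling (0.111). Of the 5 genes of this list 2 were lower and 0 higher, beside 12.9% of all tested genes called lower. None was higher at an unadjusted p under 0.05 or by DESeq2 and limma-voom. Without wild-type replicate 1 none was called lower, and without wild-type replicate 3 or knockout replicate 2, 3 or 4 the number was 1. The other ligands Pdgfc and Pdgfd and the fibroblast receptor gene Pdgfra were not called.

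Renin cells are modified smooth muscle cells of the afferent arteriole. Ren1, the renin gene, stood at 13.1, 11.2 and 13.7 CPM in the wild-type libraries and at 17.0, 18.3, 19.7 and 13.5 CPM in the knockout libraries. It was 1.35-fold higher (adjusted p = 0.0329, edgeR), the 1 gene called among 3 of its list and opposite in direction to Rgs5. The call was lost without wild-type replicate 1 (0.0843) or 2 (0.107), without knockout replicate 1 (0.0601), 2 (0.0895) or 3 (0.0817), and with total-count scaling (0.0594). The 129S1/Sv strain carries a near-identical renin gene next to Ren1, so the value is uncertain in this mixed background. Of the 3 genes of this list, 2 were higher and 0 lower at an unadjusted p under 0.05. DESeq2 and limma-voom also called 2 higher and 0 lower. Over all tested genes edgeR called 16.8% higher.

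Of 19 tested matrix genes of fibroblasts and myofibroblasts 15 were not called, as Acta2 was not, 3 were higher and 1 lower. The share called higher is near the 16.8% of all tested genes. The median log2 fold change of the list was 0.32. At an unadjusted p under 0.05, 5 were higher and 2 lower. DESeq2 and limma-voom each called 4 higher and 2 lower, and the fit with 1 surrogate variable called 6 higher. Mmp2, a matrix metalloproteinase, was 1.79-fold higher, at 3.78 ± 0.32 CPM under the wild-type label (SD, n = 3) and 6.75 ± 0.90 CPM under the knockout label (SD, n = 4, adjusted p = 0.0018, edgeR), and this call held in every fit run. Col1a1 and Col3a1, the main fibrillar collagens of scars, were 2.48-fold and 2.64-fold higher (adjusted p = 0.0292 and 0.0262), and Lox, which cross-links collagen, was 1.73-fold lower (adjusted p = 0.0426).

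The calls for Col1a1, Col3a1 and Lox were unstable, and all 3 were also lost without the low-count filter (0.0756, 0.069 and 0.0695). Col1a1 was lost without wild-type replicate 1 (0.093) or knockout replicate 1 (0.0601), 3 (0.0679) or 4 (0.053), and Col3a1 without wild-type replicate 1 (0.0736) or knockout replicate 1 (0.0537), 2 (0.0508) or 3 (0.0656). Lox was lost without wild-type replicate 1 (0.149) or 3 (0.0609) or knockout replicate 2 (0.0994), 3 (0.0814) or 4 (0.0949). The number of matrix genes called higher was 1 without wild-type replicate 1 or knockout replicate 1 or 3, and 6 without wild-type replicate 3.

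The 10 genes covered a wide range of abundance per length of transcript. Scaled to kilobases of merged exon, their means over the 7 libraries ran from 0.99 ± 0.37 CPM per kilobase for Cnn1 (SD, n = 7) to 22.8 ± 4.63 for Myl9. In rising order came Cnn1, Des, Mcam, Myh11, Pdgfrb, Acta2, Rgs5, Tagln, Mylk and Myl9. Cnn1 lay under Des in every library, since its highest value was 1.73 and the lowest of Des 2.20 CPM per kilobase. The highest Myh11 level (7.82) likewise lay under the lowest Pdgfrb level (10.8). All other neighbours in that order overlapped in range, and the 6 genes from Pdgfrb upward exceeded 85.3% to 92.2% of tested genes. Exon length was merged over all annotated forms of a gene, which can understate the level of a gene such as Mylk where a shorter form is made.

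**Figure D5:**
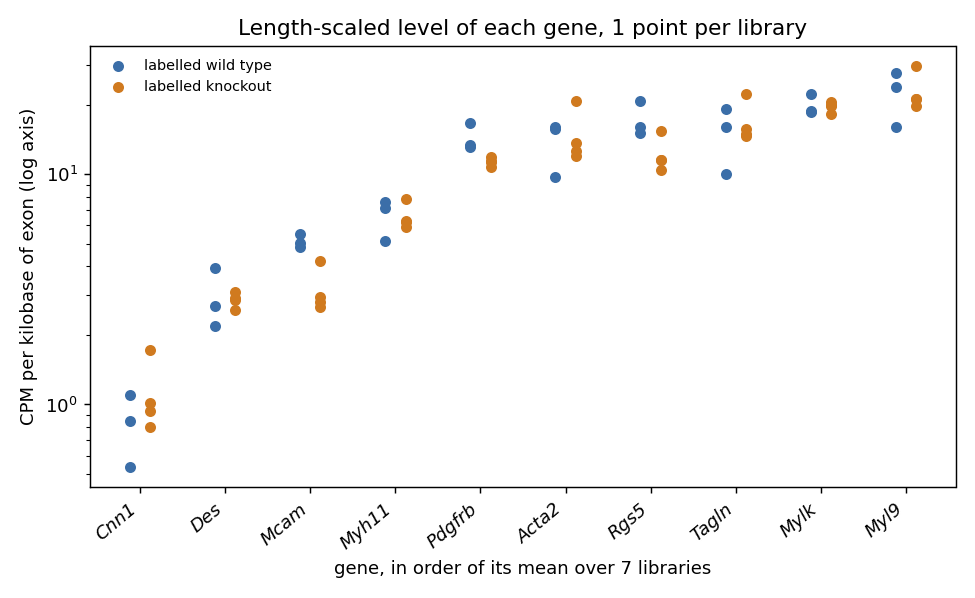
Level of each gene in CPM per kilobase of merged exon (vertical axis, logarithmic), with 1 point per library and the genes in order of their mean over the 7 libraries. Gaps separate Cnn1 from Des and Myh11 from Pdgfrb, and the other neighbours overlap.

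The genes whose library profile lay closest to Acta2 were listed from 12771 protein-coding genes that averaged 1 CPM or more, by Pearson correlation of log2 CPM over the 7 libraries. Outside the 10 genes these were Usp43 (0.98), Syt13 (0.97), Eml1 (0.95), Mustn1 (0.94) and Sparc (0.92), with Spearman's rho of 1, 0.93, 0.96, 0.86 and 0.86. Among the 10, Myl9 (0.96), Myh11 (0.95), Tagln (0.95) and Cnn1 (0.91) ranked 3, 4, 6 and 10. Mylk and Des both stood at 0.48. Wild-type replicate 2 and knockout replicate 1 lie farthest from the median of Acta2, and without them the correlation was 0.94 for Myh11, 0.88 for Myl9, 0.78 for Tagln, 0.59 for Sparc and 0.42 for Cnn1. Without that pair the surface and signalling genes stood close to Acta2 as well, with 0.94 for Mcam (0.29 over the 7 libraries), 0.89 for Rgs5 (0.41) and 0.77 for Pdgfrb (0.16). The order of likeness among the 10 genes thus rests largely on those libraries.

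The closest profiles to Pdgfrb were Oaf, Fstl3, Parvb, Elf3 and B4galt7, all at 0.99 over the 7 libraries. Mcam stood at 0.85 and Rgs5 at 0.64 on this scale, and Acta2 at 0.16. As Pdgfrb did not overlap between the groups, these values reflect the genotype labels as well as the libraries, and the highest of 12771 values over 7 libraries are high by selection. They are descriptions without a test.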

How the data were processed

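Whole-kidney RNA libraries (NEBNext Ultra II Directional) were analysed from 3 mice labelled wild type and 4 labelled knockout. The authors' deposited expected counts are estimated reads per gene written as whole numbers. Per the submitters' processing notes, the build was mm10 and the tools DRAGEN and DESeq2, with no version. Annotation, filters and the use of strand in counting are not given in the labels or headers. The authors' deposited normalized signal equals the counts divided by factors that differ between genes within a library, and it entered only as an alternative.

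Symbols, positions and exon lengths came from GENCODE M21. Counts were filtered with filterByExpr, scaled by TMM and tested with edgeR 4.0.16 (quasi-likelihood, robust, 2-sided, no covariates, R 4.3.3), with Benjamini-Hochberg adjustment over 17964 genes and a call at an adjusted p under 0.05. The common biological coefficient of variation was 15.2%. CPM used TMM-scaled library sizes. The 95% intervals multiplied the SE by the t quantile at 5 degrees of freedom, fewer than the edgeR test used, so they are wider than that test would give. The edgeR step was tested on simulated data. No pair of libraries agreed within sampling noise (median chi-square per gene 2.71 to 12.8). Replicate numbers follow deposit order and pair nothing.

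Alternatives were DESeq2 1.42.0, limma-voom (limma 3.58.1), other scalings, filters and thresholds, 1 surrogate variable (sva 3.50.0), the deposited normalized values (log2 of the value plus 1) or factors, protein-coding genes only, and each library left out. The genes and lists were chosen with earlier results of these data known. Named genes were the 10 members, from each list the first 4 called genes by adjusted p or, with none called, the 2 of highest mean CPM, the 5 nearest profiles to Acta2 and Pdgfrb, and Cdh11. Python 3.11.15 made the summaries.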

Additional observations from a re-analysis of the deposited data

Results flagged for a closer look

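In the knockout group, knockout replicate 1 stood apart from the other 3 libraries for 3 of the 48 genes examined, with a gap to its nearest neighbour that, as a share of the group's range, passed Dixon's 95% critical value. Chance gives such a gap in about 1 of 20 groups. The genes were Tagln (44.6 CPM in that library against 29.1 to 31.3 in the others), Myl9 (34.4 CPM against 23.0 to 24.8) and Csrp1 (49.6 CPM against 34.7 to 35.5). Acta2, Myh11, Mcam and Rgs5 were also highest in knockout replicate 1 within the group, with gaps of 0.80, 0.81, 0.82 and 0.77 of the range.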

How the results depend on the processing

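Of the 10 genes, 3 were called lower and 0 higher in the reported fit. With total counts as the only scaling, and at an adjusted p under 0.01, 1 was called. Leaving out a library gave 2 to 3 called, all lower. Over all genes 5327 were called, 2784 at an adjusted p under 0.01, and 3804 to 5300 without a library. The sign of Des and Mylk turned with limma-voom (0.0879 and 0.0146), and that of Fabp4 and Star, the most abundant tested adipocyte and adrenal markers (log2 fold change -0.02 and -0.16), with the deposited normalized values (0.0216 and 0.19) and factors (0.0144 and 0.24). None of these was called. With a library left out the log2 fold change ran from -0.12 to 0.20 for Acta2, -0.0575 to 0.37 for Tagln, -0.17 to 0.0819 for Myh11, -0.21 to 0.22 for Des, -0.16 to 0.19 for Myl9, -0.0762 to 0.0639 for Mylk and -0.14 to 0.14 for Fabp4. The cause of these changes was not tested. No paired analysis was possible because replicate numbers only follow deposit order. Cnn1, the least abundant of the 10 genes at 109 to 400 counts per library, varied within the groups with a CV of 34.3% and 37.1%.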
